A study of Equus caballus with 14 samples.

Results

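The 3 equine corpora lutea described here, called Kiwi, Kate2 and Emma2 after their libraries, were biopsied on day 11 and again on day 13 after ovulation and carry a non-pregnant label on both days. They were chosen by those labels and give 6 of the 14 poly(A) RNA-seq libraries in the series, and 3 of its 8 glands. Each gland came from a different mare, healthy, cycling and of light breed. No drug treatment is named, and the labels give no ages. The number added to Kate and Emma marks the later of 2 corpora lutea from the same mare. A pair of further non-pregnant libraries served as references for the unpaired comparison. Roanie was sampled on day 11 alone. The earlier corpus luteum of Kate is labelled non-pregnant on day 13 and pregnant on day 11. The pregnant glands sampled on both days were Emma and Cornelia, so the mare Emma gave a gland of each status. Every day 13 library came from a gland that had already been biopsied on day 11. An effect of the day and an effect of the earlier needle sample therefore cannot be told apart.

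The corpus luteum forms from the ovulated follicle and secretes progesterone. Large steroid-producing cells, small steroid-producing cells, capillary endothelium, pericytes, fibroblasts and immune cells make up the gland. In a mare that is not pregnant, prostaglandin F2 alpha from the uterus ends the life of the gland late in the luteal phase, which is called luteolysis, whereas an embryo prevents that release. The days sampled here lie before the usual end of that phase. Because a bulk library sums over all cells, fewer cells of a type and less RNA per cell cannot be told apart in any value below. Genes carry Ensembl identifiers in the deposited counts, and 0 of these could be paired with a symbol. Luteal and other cell type markers could therefore not be checked against the tissue label, and the genes below are given by identifier with no statement of function.

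Depth moved with day in these glands. The day 13 library held 66.8% of the day 11 total in Kiwi, 85.4% in Kate2 and 77.4% in Emma2, and totals in the 6 libraries ran from 20182039 to 31295492 counts. Between 13983 and 14343 genes had at least 10 counts in each of them. The 10 most abundant genes took 14.3% of the counts on day 11 and 13.9% on day 13 in Kiwi, 13.1% and 13.3% in Kate2, and 13.4% and 15.6% in Emma2. Values are given as CPM, the count divided by the TMM-scaled library total and put on a scale common to all libraries. The tests covered 15437 of 30371 genes, the rest being too scarce.

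The series was made to look for reference genes whose expression is steady over status and day, and the comparison here asked which genes changed over the 2 days within a non-pregnant gland. Taken within glands, 4 genes rose from day 11 to day 13 at an adjusted p under 0.05 in edgeR's quasi-likelihood test, which is 0.0259% of the genes tested, and 0 fell (0%). DESeq2 with the same design called 48, among them these 4, of which 46 were higher and 2 lower. Of the 4, ENSECAG00000009742 reached 18.0 CPM in a non-pregnant day 11 library, and the others at most 5.23 CPM. All 4 stood several-fold higher on day 13 in each of the 3 glands. ENSECAG00000017274 and ENSECAG00000039058 had the smallest p-values. ENSECAG00000009742 and ENSECAG00000010615 were named after their values were seen.

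ENSECAG00000017274 went from 1.70 to 13.4 CPM in Kiwi, from 1.75 to 45.4 CPM in Kate2 and from 5.23 to 111 CPM in Emma2. These are 7.87-fold, 26.0-fold and 21.2-fold increases. The 3 day 13 values lay above all 4 non-pregnant day 11 values, including Roanie at 2.86 CPM. The earlier corpus luteum of Kate held 2.46 CPM on day 13, inside the day 11 range. The fitted log2 change within glands was 4.09 ± 0.32 (SE, 3 pairs), with an adjusted p of 0.0191 in edgeR.

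ENSECAG00000039058 was nearly silent on day 11. It had 0, 6 and 25 counts on day 11 in Kiwi, Kate2 and Emma2, and 59, 410 and 658 counts on day 13. In CPM it went from 0 to 2.80 in Kiwi, from 0.194 to 15.6 in Kate2 and from 0.807 to 29.8 in Emma2. Against a floor of 3 counts per library the increase in Kiwi was at least 27.9-fold. The increase was 80.4-fold in Kate2 and 36.9-fold in Emma2. Roanie on day 11 held 0.242 CPM and the earlier corpus luteum of Kate on day 13 held 0.424 CPM, both within the day 11 range of the paired glands. The fitted log2 change was 5.75 ± 0.45 (SE, 3 pairs), with an adjusted p of 0.0191 in edgeR.

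ENSECAG00000009742 changed by the smallest factor of the 4 and by the most even one. It rose from 18.0 to 66.8 CPM in Kiwi, from 7.81 to 37.5 CPM in Kate2 and from 3.91 to 25.0 CPM in Emma2, or 3.71-fold, 4.80-fold and 6.41-fold. The glands kept their order, with Kiwi highest on both days and Emma2 lowest. Each gland therefore rose from its own level, and the lowest paired day 13 value was above the highest of all 4 non-pregnant day 11 values, 18.0 CPM. Roanie on day 11 was at 15.4 CPM and the earlier corpus luteum of Kate on day 13 at 5.13 CPM. The fitted log2 change was 2.26 ± 0.19 (SE, 3 pairs), with an adjusted p of 0.0197 in edgeR.

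ENSECAG00000010615 was the least abundant of the 4. Its counts went from 0 to 7 in Kiwi, from 14 to 314 in Kate2 and from 3 to 155 in Emma2. Kiwi on day 13, at 0.332 CPM, lay below Kate2 on day 11, at 0.453 CPM, so the days overlapped between glands, while Kate2 and Emma2 on day 13 reached 11.96 and 7.02 CPM. The increase was 26.4-fold in Kate2, and in Kiwi it was at least 3.31-fold against the floor. With 3 counts on day 11, the ratio in Emma2 was 72.5 and rests on those 3. The fitted log2 change was 5.23 ± 0.49 (SE, 3 pairs), with an adjusted p of 0.0311 in edgeR. Of the 4 genes, 3 had all paired day 13 values above all 4 non-pregnant day 11 values, and 0 kept that separation with the earlier corpus luteum of Kate on the day 13 side. The 4 were called on these same paired values, so the separation adds no independent evidence.

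The 4 calls used the pregnant pairs as well, which added to the estimate of the spread although not to the size of the change. With the 6 paired libraries alone edgeR called 0 genes, and each of the 4 had an adjusted p of 0.0821. Without Kate2 it called 0, and without Emma2 it called 0. The smallest adjusted p among the 4 was then 0.132 and 0.27. Without Kiwi 3 of the 4 remained called, and ENSECAG00000010615 had an adjusted p of 0.0561. In limma with voom over the 8 non-pregnant libraries, with the gland as a random block, all 4 had an adjusted p of 0.999. Standard errors there ran from 0.64 for ENSECAG00000009742 to 2.17 for ENSECAG00000039058. Over all alternatives the log2 change kept its sign. It ran from 3.79 to 4.53 for ENSECAG00000017274, from 5.48 to 6.58 for ENSECAG00000039058, from 1.79 to 2.46 for ENSECAG00000009742 and from 4.78 to 6.12 for ENSECAG00000010615. With libraries thinned to equal depth all 4 remained called, among 5 genes.

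**Figure D1:**
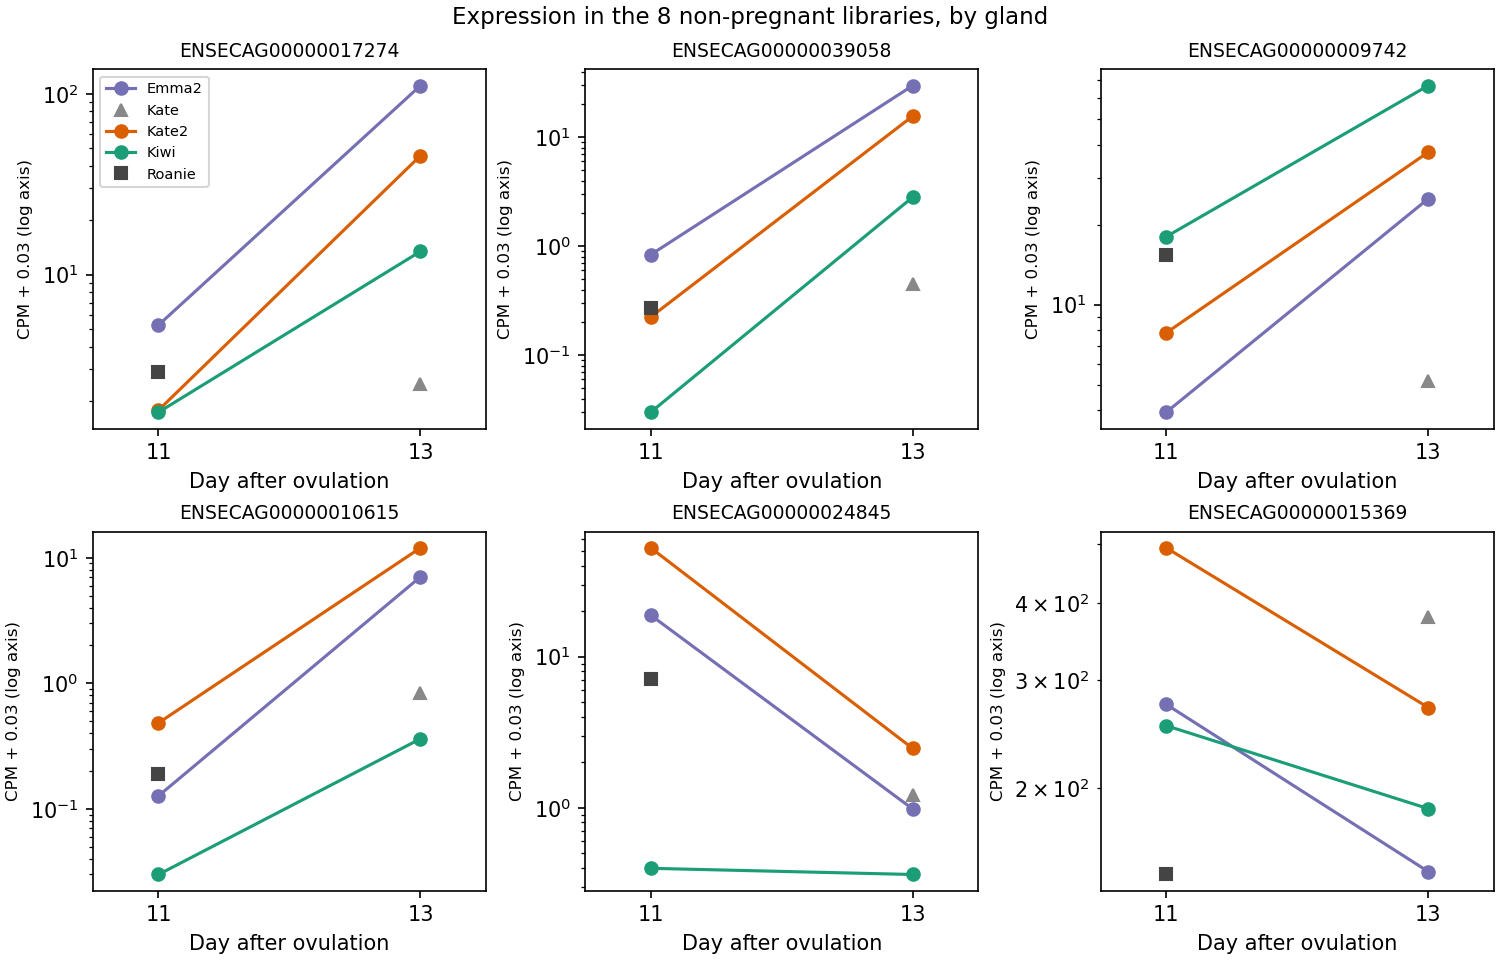
Expression of the 4 called genes and the 2 genes named among those lower at day 13, in CPM plus 0.03 on a log axis, by day. Lines join the 2 libraries of a gland, the square is Roanie on day 11 and the triangle is the earlier corpus luteum of Kate on day 13. In the first 4 panels every line rises and the triangle lies below the paired day 13 points in 3 of them, while in ENSECAG00000024845 the lines of Kate2 and Emma2 fall and that of Kiwi stays near 0.3 CPM.

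Just outside the threshold the same direction held. In the paired fit 10 genes had an adjusted p under 0.1 in edgeR, all 10 higher at day 13, with log2 changes from 2.26 to 6.04. The 6 that were not called had adjusted p-values from 0.0677 to 0.0897. On day 11 their median was 0.0668 CPM in Kiwi, 0.081 CPM in Kate2, 0.161 CPM in Emma2 and 0.141 CPM in Roanie. At those levels the count per gene was at most 12 in any of these libraries. On day 13 their median was 1.45 CPM in Kiwi, 4.06 CPM in Kate2 and 2.90 CPM in Emma2, with counts from 20 to 537 per gene. The earlier corpus luteum of Kate on day 13 again stayed at the day 11 level, with a median of 0.148 CPM. Of the 10 genes, 9 had all 3 paired day 13 values above all 4 non-pregnant day 11 values, and 2 were above them in the earlier corpus luteum of Kate. The 10 were picked by their paired p in these same libraries, so that separation is partly built in. Its share over all genes was not counted. Among the day 11 libraries the highest median of the 6 was 2.95 CPM, in the pregnant gland Gisela, followed by 0.825 CPM in the earlier corpus luteum of Kate. Gisela was the highest day 11 library for 5 of the 10.

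In the paired edgeR fit no gene fell past the threshold. Limma with voom called 1 lower, edgeR without a low-count filter 1 and DESeq2 2. In edgeR the smallest adjusted p among genes lower at day 13 was 0.214. ENSECAG00000024845 had that value, and its adjusted p was 0.0412 in limma with voom and 0.0107 in edgeR without the filter. The gene was not called in 10 of 13 alternatives, with an adjusted p of 0.107 in DESeq2. It went from 52.5 to 2.44 CPM in Kate2 and from 18.8 to 0.951 CPM in Emma2, which are 21.5-fold and 19.8-fold decreases. In Kiwi it was at 0.367 CPM on day 11 and 0.332 CPM on day 13, with 11 and 7 counts, near the bottom of the range on both days. Roanie on day 11 held 7.05 CPM and the earlier corpus luteum of Kate on day 13 held 1.19 CPM. The fitted log2 change was -3.88 ± 0.63 (SE, 3 pairs). Without Kiwi its adjusted p was 0.00837 in edgeR, with a log2 change of -4.38, and it was the 1 gene called lower. Without Kate2 and without Emma2 its adjusted p was 1.

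ENSECAG00000015369 followed among the lower genes whose mean reached 1 CPM. It is abundant, and it went from 252 to 185 CPM in Kiwi, from 492 to 270 CPM in Kate2 and from 273 to 146 CPM in Emma2. Within each gland the day 13 value was the lower, by 1.37-fold, 1.82-fold and 1.87-fold. Between glands the days overlapped, since Roanie on day 11 was at 144 CPM and the earlier corpus luteum of Kate on day 13 at 380 CPM. The fitted log2 change within glands was -0.74 ± 0.16 (SE, 3 pairs), with an adjusted p of 0.544 in edgeR, and 0.00561 in DESeq2 with the same design. In limma with voom the adjusted p was 0.418, and 12 of 13 alternatives did not call the gene.

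Below the threshold, genes higher at day 13 outnumbered those lower in the paired fit, and the excess lay in scarce transcripts. With an unadjusted p under 0.05, 323 genes were higher, 2.09% of those tested, and 169 lower, 1.09%. Together these are 492 of 15437 genes, below the share of 0.05 that would pass with no change at all. In the class under 1 CPM, however, the higher side alone was above that share, at 5.54%. The sets come from an unadjusted threshold and cannot be read as lists of changed genes, although the 323 include the 4 called. With limma, voom and the gland as a random block over the 8 non-pregnant libraries, which also brings in Roanie and the earlier corpus luteum of Kate, the counts were 334 higher and 325 lower. Among 2437 genes with a mean under 1 CPM, 135 (5.54%) were higher and 29 (1.19%) lower. Among 4474 genes from 1 to 10 CPM, 104 (2.32%) were higher and 44 (0.983%) lower. That large excess was gone in the 7081 genes from 10 to 100 CPM, with 60 higher and 77 lower. In the 1445 genes of 100 CPM and over, 24 were higher and 19 lower. Sizes among the genes with p under 0.05 differed as well, but scarce genes have larger standard errors, so only large changes pass there. Over all genes tested the median log2 change was 0.11 in the scarcest class and -0.005 in the most abundant. In the scarcest class the median log2 change of the genes higher at p under 0.05 was 3.37. In the most abundant class it was 0.46, and no gene there with p under 0.05 had a log2 change above 0.94 or below -0.99. Under a minimum mean of 1 CPM, which removes the scarcest class, the counts were 183 higher and 136 lower, and the same 4 genes were called.

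**Figure D2:**
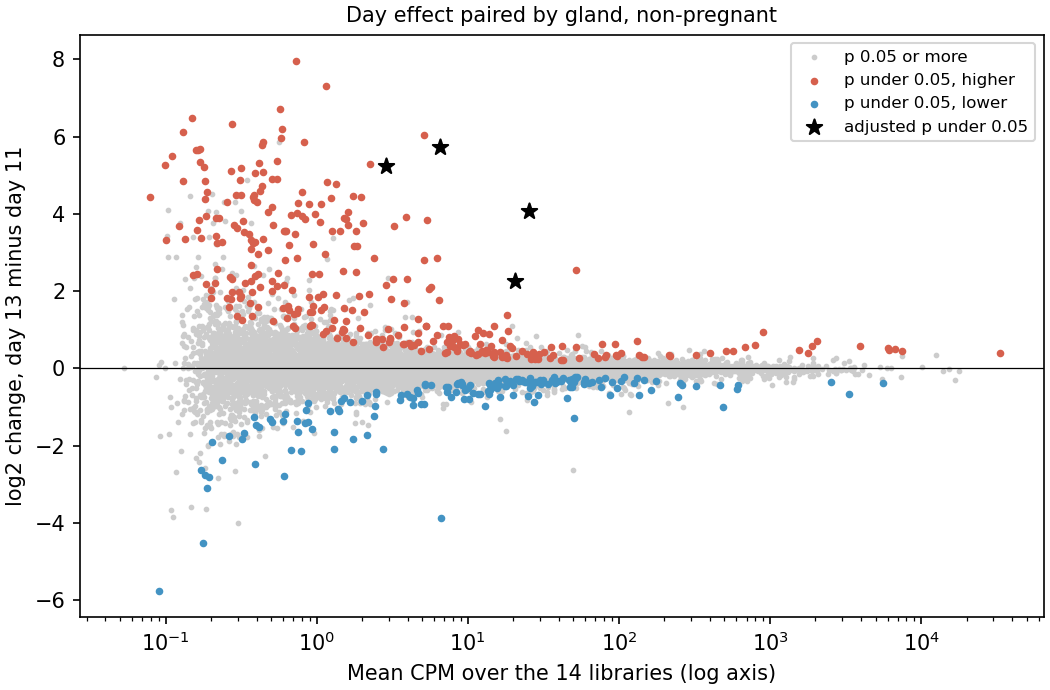
Fitted log2 change from day 11 to day 13 within the 3 non-pregnant glands, against the mean CPM over the 14 libraries on a log axis, 1 point per gene tested. Red and blue points are the 323 genes higher and 169 lower at an unadjusted p under 0.05, and stars are the 4 called genes. Large changes lie at low abundance, where standard errors are larger, and mostly above 0.

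**Figure D3:**
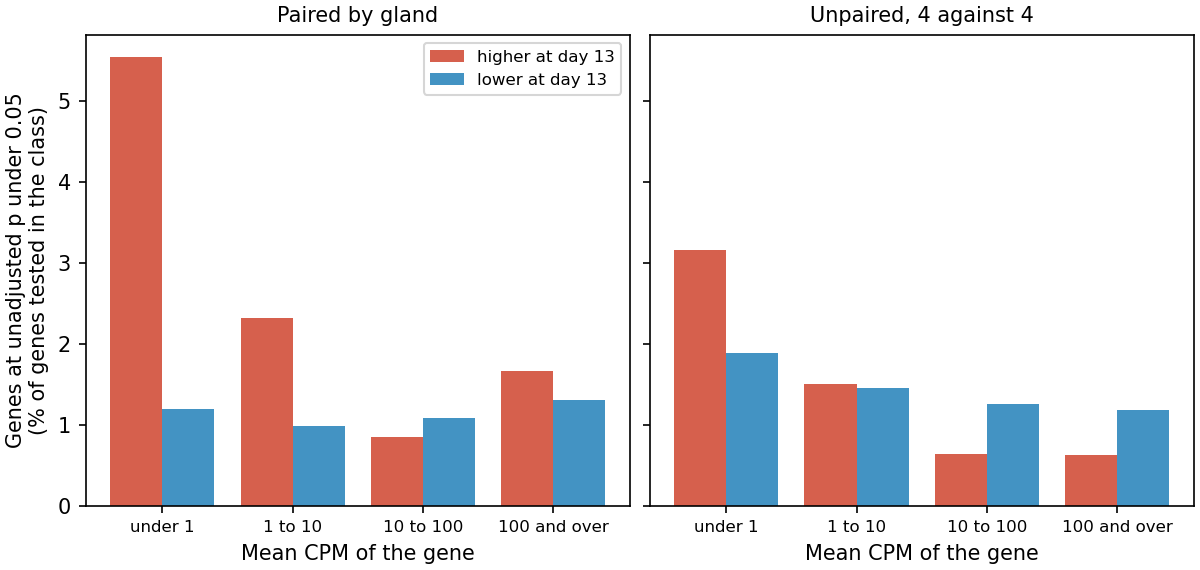
Share of the genes tested in each class of mean CPM that had an unadjusted p under 0.05, higher or lower at day 13, in the paired and the unpaired fit. In the class under 1 CPM, 5.54% were higher and 1.19% lower in the paired fit, against 3.16% and 1.89% in the unpaired fit.

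The 3 glands did not change alike over the 2 days. In the 8526 genes whose mean reached 10 CPM, log2 changes had an SD of 0.31 in Kiwi, 0.30 in Kate2 and 0.29 in Emma2, so the spread was of one size. Kiwi had 35 genes (0.411%) higher by 2-fold or more and 59 (0.692%) lower. Kate2 leaned upward, with 81 (0.95%) higher and 27 (0.317%) lower, and Emma2 downward, with 14 (0.164%) higher and 76 (0.891%) lower. Each of these compares 1 library with 1 library and has no replicate check.

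Most of these larger changes were counted in 1 gland alone. Of 120 genes that were 2-fold higher in at least 1 of the 3 glands, 113 (94.2%) were so in 1 gland alone, 4 in 2 and 3 in all 3. ENSECAG00000017274 and ENSECAG00000009742 were among the last 3. Of 152 genes that were 2-fold lower in at least 1 gland, 142 (93.4%) were so in 1 alone, 10 in 2 and 0 in all 3. Each gland had only 0.164% to 0.95% of the genes on each side, and at such rates most would be unshared anyway. The overlap expected from those shares was not counted, so these counts do not measure how alike the glands were. In 41 genes 1 gland rose by 2-fold while another fell by 2-fold, and 27 of them were higher in Kate2 and lower in Kiwi. Across the 8526 genes, the log2 changes correlated with r = -0.12 between Kiwi and Kate2, -0.15 between Kiwi and Emma2, and 0.11 between Kate2 and Emma2. These r describe pairs of libraries across genes that are not independent, and they carry no test.

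Which library of the pair stood apart also differed. Of the 59 genes 2-fold lower in Kiwi, 48 had their highest value of all 8 non-pregnant libraries in Kiwi on day 11. In Emma2 it was the later library: 58 of the 76 genes 2-fold lower had their lowest value of the 8 in Emma2 on day 13. In Kate2, 36 of the 81 genes 2-fold higher were highest of the 8 in Kate2 on day 13. By contrast, 9 of the 59 were lowest of the 8 in Kiwi on day 13, and 10 of the 76 were highest of the 8 in Emma2 on day 11. Choosing genes by a 2-fold change within a pair favours extreme values in that pair. The share of all genes with their highest or lowest value in each library was not counted.

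**Figure D4:**
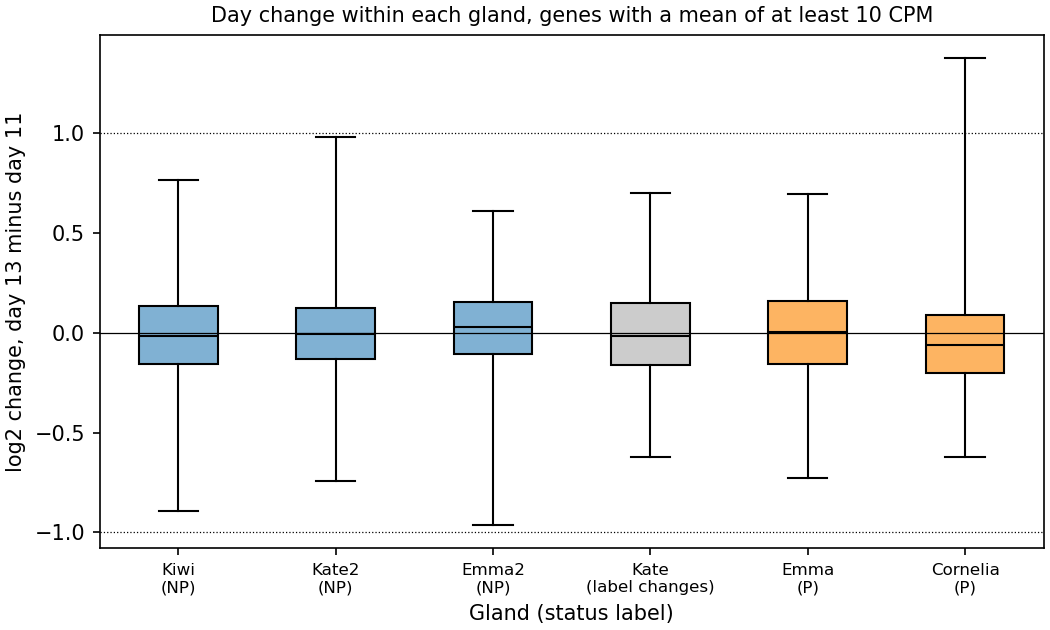
Log2 change from day 11 to day 13 within each gland over the 8526 genes whose mean reached 10 CPM. Boxes give the quartiles, the line the median and whiskers the 1st and 99th percentiles; the 3 non-pregnant glands are blue, and dotted lines mark 2-fold. Medians in the blue boxes lie between -0.02 and 0.03, and nearly all genes lie within 2-fold in each.

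Levels differed between glands, and so did the changes. In the 8526 more abundant genes the absolute mean change over the 3 pairs had a median of 0.07 on the log2 scale, where opposite moves cancel, and the SD of the change over the 3 glands had a median of 0.17. The SD of the level over the 4 non-pregnant day 11 glands had a median of 0.20. For 12.9% of genes the mean change was larger than that SD of the level, and for 14 genes it was over 1. After centring each gene over the 8 non-pregnant libraries, the 2 days of a gland correlated across genes with r = 0.50 in Kiwi, 0.36 in Kate2 and 0.54 in Emma2. For 5 of the 6 paired libraries the most similar of the other 7 was the same gland on the other day. Kate2 on day 11 was the exception, and lay nearest the earlier corpus luteum of the same mare, at r = 0.37. Libraries of different mares on the same day had r from -0.45 to 0.10. Centring over so few libraries pushes r between unlike ones below 0.

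**Figure D5:**
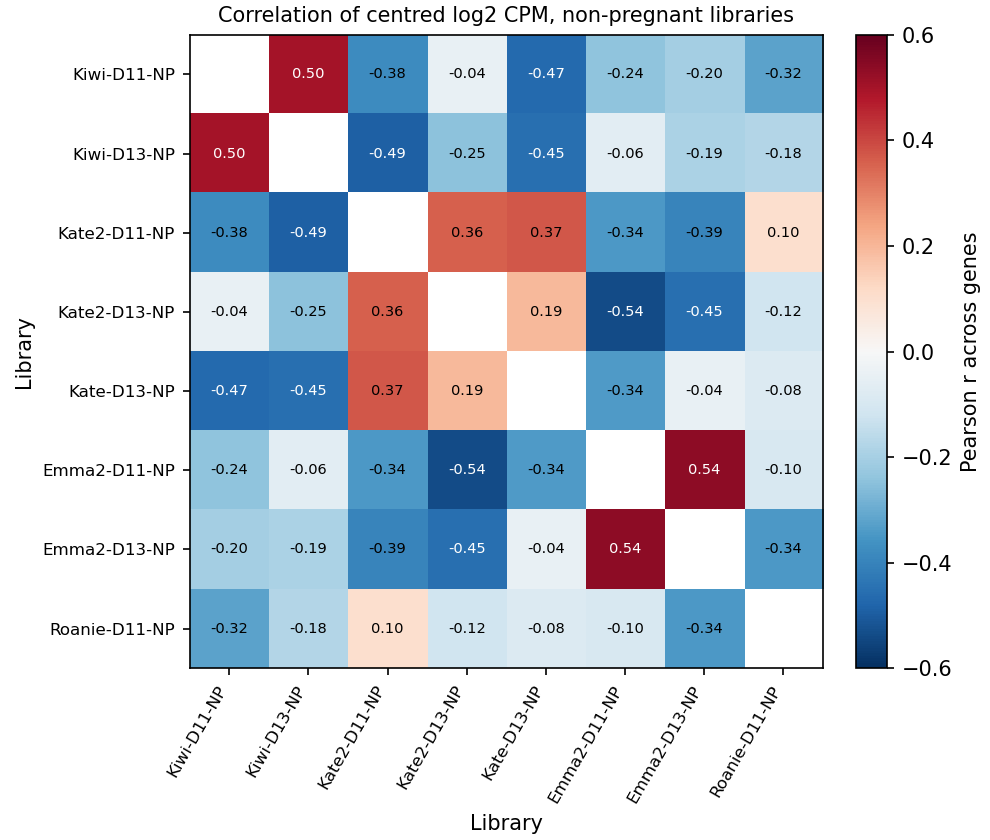
Pearson r across 8526 genes between the 8 non-pregnant libraries, after centring the log2 CPM of each gene over the 8. Positive values sit between the days of a gland (0.50 in Kiwi, 0.36 in Kate2, 0.54 in Emma2), between the glands of Kate, and at 0.10 between Roanie and Kate2 on day 11.

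Intervals were narrower in the paired fit, which leaves out Roanie and the earlier corpus luteum of Kate as well as comparing within glands. For 97.3% of the 8526 genes the 95% confidence interval of the paired change lay within 2-fold, and for 87.1% within 1.5-fold. In the unpaired fit the shares were 94.7% and 79.7%. Changes of 2-fold or more between these days are therefore outside the interval for nearly all of the more abundant genes, given the spread that the model estimates. That spread rests on 3 residual degrees of freedom in the paired fit, raised to a median of 7.52 by sharing between genes. All 3 pairs moved up in 1989 genes (12.9% of those tested) and down in 1407 (9.11%), at any size of change. With random directions in 3 pairs, a share close to the first would be reached each way, and the second is below it.

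Without pairing, 4 day 13 libraries were set against 4 day 11 libraries, and edgeR called 0 genes (0%). With an unadjusted p under 0.05, 198 genes were higher (1.28%) and 217 lower (1.41%), and without TMM scaling 142 were higher and 260 lower. Both totals were below the share of 0.05 that would pass with no change. The paired fit had its excess on the higher side under each scaling, at 275 higher and 197 lower without TMM. DESeq2 called 7, all higher, and limma with voom 0. Leaving out Roanie moved the lower count from 217 to 109, and leaving out Kiwi on day 11 moved it to 364. The 4 genes called within glands had the same sign here. ENSECAG00000017274 stood at 43.1 ± 48.8 CPM on day 13 against 2.89 ± 1.65 CPM on day 11 (SD, n = 4 each), and ENSECAG00000009742 at 33.6 ± 25.8 against 11.3 ± 6.54 CPM. Standard errors of the log2 change were 1.04 and 0.60 here, against 0.32 and 0.19 within glands. Without the earlier corpus luteum of Kate the unpaired standard errors were 0.93 and 0.47. For ENSECAG00000039058 and ENSECAG00000010615 the log2 changes were 5.25 ± 1.28 and 4.78 ± 1.21 (SE), and all 4 had an adjusted p of 1 in edgeR. The 4 day 13 libraries lay entirely above the 4 day 11 libraries in 127 genes (0.823%) and entirely below in 117 (0.758%), and the 4 called genes were not among the 127. Both shares lie below what a random order of these libraries would give, but each paired gland has a library on each side. Steady level differences between glands make full separation of the days rarer, so that comparison does not show whether the day had an effect. Without both libraries of the earlier corpus luteum of Kate, the unpaired fit called 1 gene, which was higher.

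Roanie on day 11 and the earlier corpus luteum of Kate on day 13 carry no weight on the paired change. The 323 genes higher within glands had a median log2 difference of 0 between these libraries, with 56% above 0, and all 15437 genes had a median of -0.01 with 49.2% above 0. The 169 genes lower within glands had a median of -0.31, with 65.1% below 0, against 50.8% of all genes. Within the earlier corpus luteum of Kate, from its pregnant day 11 label to its non-pregnant day 13 label, the medians were 0 for the 323 and -0.18 for the 169. In the pregnant glands the 323 were mostly higher at day 13, with a median of 0.69 in Emma (86.1% above 0) and 1.42 in Cornelia (80.2%). Of all genes, 50% and 47.6% were above 0 there. The 188 of the 323 with a mean of at least 1 CPM had smaller medians, 0.46 in Emma (82.4%) and 0.37 in Cornelia (73.4%). The 169 had medians of -0.24 in Emma (78.1% below 0) and -0.12 in Cornelia (60.9%), against 50% and 52.2% of all genes below 0. The pregnant pairs entered the fit from which these genes were taken, through the estimate of the spread. The mare Kate also gave Kate2, so these libraries are not fully independent of the paired glands. All 4 called genes had lower values on day 13 in this gland. ENSECAG00000017274 went from 5.20 to 2.46 CPM, ENSECAG00000039058 from 1.82 to 0.424 CPM, ENSECAG00000009742 from 11.5 to 5.13 CPM and ENSECAG00000010615 from 0.888 to 0.806 CPM, or 21 to 19 counts.

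The same 4 genes were also higher at day 13 in the pregnant glands Emma and Cornelia. ENSECAG00000017274 reached 89.2 and 64.6 CPM there, from 0.999 and 0.472 CPM, and ENSECAG00000039058 reached 21.0 and 17.9 CPM. ENSECAG00000009742 reached 39.7 and 35.8 CPM from 4.59 and 6.48 CPM, and ENSECAG00000010615 reached 7.39 and 10.6 CPM. The test of the difference between the day effects, non-pregnant minus pregnant, found no gene past the threshold with edgeR (0%). It left 244 genes below 0.05 before adjustment (1.58%), under the share that would pass with no difference. That number was 881 of 15886 genes without Emma, which is above the share of 0.05. It was 378 of 15819 without Cornelia, 316 of 15321 without Kiwi, 353 of 15327 without Kate2 and 172 of 15347 without Emma2, all below it. DESeq2 called 2 and limma with voom 0. For ENSECAG00000017274 the difference was -2.65 ± 0.52 on the log2 scale (SE), with a 95% interval from -3.87 to -1.44 and an adjusted p of 1 in edgeR. The interval ran from -5.01 to -0.41 for ENSECAG00000039058, from -1.21 to 0.16 for ENSECAG00000009742 and from -2.76 to 0.99 for ENSECAG00000010615. All 4 estimates were negative, and the intervals are not adjusted for the number of genes tested. ENSECAG00000024845 was at 0.999 CPM on day 11 and 0.454 CPM on day 13 in Emma, and at 1.76 and 1.55 CPM in Cornelia. Its difference was -3.32 ± 0.93 (SE), and edgeR gave an adjusted p of 1. With edgeR and with limma and voom, no gene was shown to change differently in the non-pregnant glands.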

How the data were processed

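The authors deposited raw counts per Ensembl gene for 14 strand-marking poly(A) libraries, each begun with 1000 ng, per the labels' protocols. The submitters' processing notes name Trim Galore, STAR and the EquCab3.0 build. How genes were counted, on which strand and with which annotation is not given here, so counts of near-identical or overlapping genes are uncertain. Genes were kept by filterByExpr over the 4 groups (99.974% of counts) and scaled by TMM. A prior count of 2 entered log2 CPM. The paired comparison used the quasi-likelihood F test of edgeR 4.0.16 (R 4.3.3) over 14 libraries, with a term for each gland and for day 13 within each status; the gland whose label changes had its own day term. The unpaired test had 1 mean per group. P-values were adjusted by Benjamini and Hochberg, with a threshold of 0.05. Standard errors were derived from F and the log2 change. Pairs come from the mare, date and library name in the labels, and the days of a gland correlated at r = 0.50, 0.36 and 0.54. Because mares recur between glands and replicate origin is otherwise unstated, unpaired p-values treat libraries as more independent than they are. Since the paired glands have a library on each day, this need not make those p-values too small.

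No 2 non-pregnant libraries were copies: chi-square per degree of freedom was at least 39.7. Scripts were tested on simulated data. Genes were named by a rule: 2 higher and 2 lower with the smallest paired p whose mean reached 1 CPM; 2 further called genes were added after their values were seen. Lists of steroidogenic, luteolytic and cell type marker genes were planned but not run, since no symbol matched. No sequence or coordinate is given for the same reason. The members and lists were chosen with earlier results of these data known. Alternatives were RLE factors, no scaling, other filters, DESeq2 1.42.0, limma 3.58.1 with voom, other blocks, fewer libraries and leaving out each gland or library.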

Additional observations from a re-analysis of the deposited data

How the results depend on the processing

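The paired fit called 4 genes, and the same 4 under RLE factors, no scaling, a minimum mean of 1 CPM and, added after the data were seen, without the earlier corpus luteum of Kate. Limma with voom called 5 and thinning to equal depth (also added) called 5, each with the 4 among them. Without a low-count filter edgeR called 32 and DESeq2 called 48, again with the 4; 46 of the 48 were higher. With the 6 paired libraries alone, the gland as replicate block, 0 were called, and 0 by limma with the gland as a random replicate block over 8 libraries. Leaving out a gland gave 0 to 4 calls. For the unpaired fit the count of 0 became 7 in DESeq2 and 1 without the earlier corpus luteum of Kate. With the gland as replicate block it becomes the paired fit itself, so the 4 calls there are the same 4. The count was 0 in the other alternatives, the mare as a block and each library left out included. The difference between day effects had 0 calls, 2 in DESeq2 (added), and 0 in the others run. The unpaired log2 change of ENSECAG00000015369 was -0.24 and ran from -0.54 to 0.13 with each library left out, turning to 0.13 without Kate2 on day 11. No other named gene changed sign. At 3 pairs and a mean under 1 CPM, counts on day 11 were too few for precise ratios. No value stood apart from the others by Dixon's test in 18 sets of 4.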
